A study of Mus musculus with 2 samples.

Results

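The genes of lysosomal acidification and lysosomal proteolysis were treated as 1 group, made of the subunits and accessory proteins of the vacuolar H+-ATPase (V-ATPase), the cathepsins and the lysosome-associated membrane proteins Lamp1 and Lamp2. Members were chosen by gene symbol, as all symbols that begin with Atp6v0, Atp6v1 or Atp6ap, all Cts symbols, and Lamp1 and Lamp2. Of the 19465 genes listed for the assay 50 matched, and 37 of these had at least 20 UMIs over both sections, as did 15236 genes in all. The 37 were 9 V1 subunits, 8 V0 subunits, 2 accessory subunits, 14 cathepsins, 2 LAMPs, and Atp6ap1l and Atp6v1fnb, which match by symbol but are not subunits of the pump. The 13 below the minimum had between 0 and 19 UMIs, and 8 of them belong to the mouse cathepsins known from placenta. Ctsj with 17 UMIs and Ctsr and Atp6v1g3 with 19 each lay just below it, and Cts3 with 20, Ctsg with 24 and Atp6v1c2 with 25 just above it. Atp6v1a, the catalytic V1 subunit, was not analysed here. Tcirg1, an a subunit of V0, does not match by symbol and was counted with the genes of V-ATPase assembly and regulation.

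Spatial gene expression was measured with Visium CytAssist, a method that transfers gene-specific probes from a formalin-fixed section to barcoded spots and counts them as unique molecular identifiers (UMIs). The control section came from the heart of 1 mouse carrying 1 copy of α-MHC-MerCreMer, a tamoxifen-activated Cre recombinase driven in cardiomyocytes. The TOP2B transgenic section came from 1 mouse of genotype α-MHC-MerCreMer+/− hTOP2B LSL/−, which also carried a human TOP2B cDNA at the Rosa26 locus behind a floxed stop and a CAG promoter. Both mice received 1 intraperitoneal dose of 80 mg/kg of tamoxifen, so that Cre and tamoxifen were shared and the human cDNA was the only labeled difference. The labels give neither the age of the mice nor the day of collection. With 1 section per genotype, no test between genotypes was possible, and the 95% intervals given here cover counting error only.

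The V-ATPase pumps protons into lysosomes and other organelles. Its V1 sector in the cytosol hydrolyzes ATP and turns a rotor, and its V0 sector in the membrane carries the protons across. Cathepsins are proteases that are made as inactive precursors and mature at the acidic pH that the pump maintains, while LAMPs form much of the coat on the inner face of the lysosomal membrane. In the heart, this system clears proteins and organelles delivered by autophagy, and it is abundant in macrophages. Many of its genes carry CACGTG-type elements bound by TFEB and its relatives, the transcription factors known for lysosomal gene control.

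The control section held 1256 spots over tissue with 14376300 UMIs, a median of 11335.5 per spot, and the transgenic section held 924 spots with 12953389 UMIs, a median of 14531. Levels are UMIs per 1000000 of the section (CPM), and section ratios are log2 of the transgenic over the control CPM. Higher and lower mean higher or lower in the transgenic section. The 2 sections shared 725 spot barcodes, which are positions of the array. Over all 15236 genes the median log2 ratio was 0.20, and scaling by edgeR TMM factors or DESeq2 size factors moved every ratio by -0.16 or -0.15. Marker lists differed between the sections. The fibroblast list was at 1665 CPM (control) and 5123 CPM (transgenic), with 10 of 10 genes higher (Gsn only from 594.5 to 594.9 CPM), and the macrophage list at 379 and 732 CPM, with 14 of 15 genes higher. The cardiomyocyte list, which checks the labeled tissue, was at 88875 and 64950 CPM, with 8 of 11 genes lower. Mouse Top2b had 106 and 102 CPM, a log2 ratio of -0.07 (interval -0.17 to 0.04), and probes for the mouse gene may not read the human cDNA. The transgenic section also had 54 spots, 5.84% of its spots, in which erythroid genes made up more than 10% of the UMIs, against 8 spots in the control. In sums over a section, more cells of a type and more RNA per cell cannot be told apart.

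Promoters of 27 of the 37 genes are in RefSeq's promoter windows (GRCm38.p6, from 250 bases before to 50 after the transcription start), a build that differs from the GRCm39 named in the submitters' processing notes. The 6 letters CACGTG, the same on both strands, were found in 8 of the 27 (29.6%), namely Lamp1, Atp6v0b, Atp6v0d1, Atp6v0e, Ctsa, Ctsd, Ctsf and Ctsl, and in 8.09% of all 27025 genes with a window. The 8 letters TCACGTGA, which contain the shorter motif and also read the same on both strands, were found in Atp6v0d1, Atp6v0e, Ctsa and Ctsd (14.8%), against 1.12% of all genes. The 27 had at least 20 UMIs, whereas all genes with a window include genes below that minimum. Among genes with a window and at least 20 UMIs, 1285 had CACGTG and 10540 did not. For TCACGTGA these counts were 222 and 11603. A match is a stretch of letters and not evidence of binding. Shown are the windows of Ctsl, which had the highest section ratio of the 37 genes, of Ctsd, which hardly differed, of Ctsa, with 2 copies of the longer motif, and of Lamp1, with 4 copies of the shorter, with each motif in capitals. They lie at chr13:64370471-64370770 on the minus strand, chr7:142387778-142388077 on the minus strand, chr2:164833523-164833822 on the plus strand (the second of the 2 windows of Ctsa) and chr8:13158911-13159210 on the plus strand.
Ctsl: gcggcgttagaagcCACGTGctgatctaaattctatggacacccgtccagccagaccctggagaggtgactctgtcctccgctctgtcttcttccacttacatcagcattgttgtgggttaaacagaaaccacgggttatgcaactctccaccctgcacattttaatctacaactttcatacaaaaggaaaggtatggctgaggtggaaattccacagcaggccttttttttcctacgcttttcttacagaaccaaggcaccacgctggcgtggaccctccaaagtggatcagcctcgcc
Ctsd: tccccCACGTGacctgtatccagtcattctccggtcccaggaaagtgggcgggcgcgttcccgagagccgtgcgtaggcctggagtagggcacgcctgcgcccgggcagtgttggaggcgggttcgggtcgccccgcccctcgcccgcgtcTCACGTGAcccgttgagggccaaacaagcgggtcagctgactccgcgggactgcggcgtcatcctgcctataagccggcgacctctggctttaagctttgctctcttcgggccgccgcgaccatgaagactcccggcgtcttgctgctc
Ctsa: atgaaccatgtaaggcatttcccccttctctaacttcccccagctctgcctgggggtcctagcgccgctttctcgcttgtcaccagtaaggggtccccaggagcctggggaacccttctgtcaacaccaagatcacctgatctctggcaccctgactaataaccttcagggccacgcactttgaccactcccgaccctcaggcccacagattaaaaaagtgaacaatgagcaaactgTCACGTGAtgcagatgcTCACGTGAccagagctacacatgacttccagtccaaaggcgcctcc
Lamp1: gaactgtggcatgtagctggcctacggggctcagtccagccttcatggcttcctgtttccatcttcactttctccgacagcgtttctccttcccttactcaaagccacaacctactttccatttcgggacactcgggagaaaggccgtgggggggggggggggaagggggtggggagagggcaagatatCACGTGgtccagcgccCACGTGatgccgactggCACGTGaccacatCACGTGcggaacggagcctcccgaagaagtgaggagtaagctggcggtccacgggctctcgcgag
The single motif of Ctsl lies at -236 from the start, the 2 of Ctsd at -245 and -98, the 2 of Ctsa at -12 and 5, and the 4 of Lamp1 at -61, -45, -28 and -15. The 8 genes with CACGTG had a median log2 ratio of 0.25, with a range from -0.06 for Ctsf to 2.36 for Ctsl, and the other 19 had 0.35. Over all genes with a window and at least 20 UMIs the medians were 0.25 with the motif and 0.19 without.

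Cathepsins stood higher in the transgenic section and pump subunits only slightly so. The 14 cathepsins had a median log2 ratio of 0.64, which was 0.44 above the median of all genes, and the 17 pump subunits had 0.33, which was 0.13 above it. V1 and V0 subunits each had a median of 0.33. Tested genes in the abundance range of the members with at least 200 UMIs in a section had medians of 0.20 for the cathepsins, 0.21 for V1 and 0.18 for V0. Those members themselves had medians of 0.75, 0.40 and 0.33. The ranges were wide and held 6635, 7249 and 2782 genes. Of the members, Ctsk (117 UMIs in the control, 379 in the transgenic section) and Atp6v1g2 (165 and 206) reached 200 UMIs only in the transgenic section. Such a filter favors genes that are higher there, and its part in these medians was not tested.

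At least 2-fold higher were 6 of 14 cathepsins (42.9%) and 2 of 17 pump subunits (11.8%), where 13.7% of all genes were. The share among the pump subunits was thus near the background. Among the 37 genes 8 were at least 2-fold higher, and 3 were at least 2-fold lower, namely Ctsg, Atp6v0d2 and Atp6v1fnb, each with at most 20 UMIs in a section, where 5.61% of all genes were. Of the 37, 32 were higher at all, where 63.2% of all genes were without such scaling. After TMM or DESeq2 scaling this count was 26, and the median log2 ratio of all genes was 0.05. The share of all genes higher after scaling was not counted. Among the 17 pump subunits the counts were 16 and 12, and among the 14 cathepsins 12 and 10. Summed over members, cathepsins were at 2425 CPM (control) and 4419 CPM (transgenic), V1 subunits at 727 and 864 CPM, and V0 subunits at 556 and 711 CPM.

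**Figure D1:**
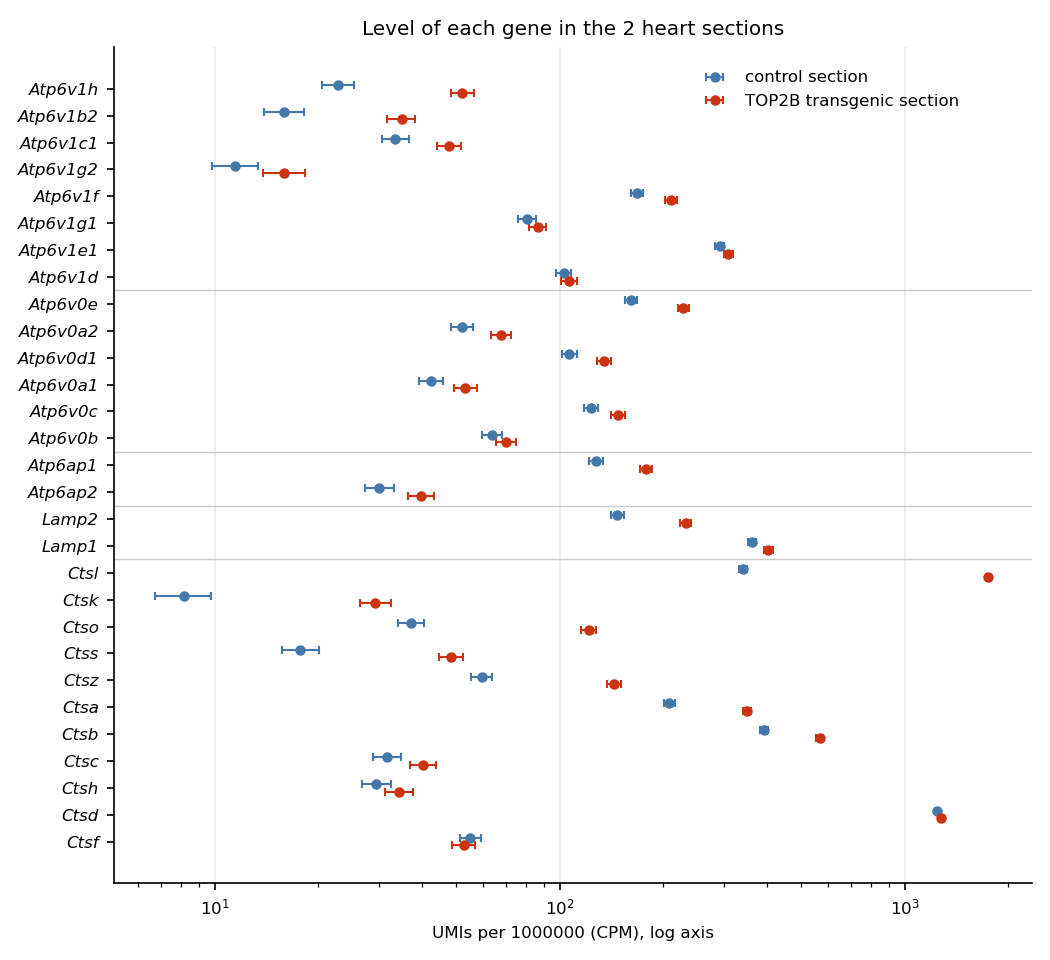
Levels of the 29 members that reached 200 UMIs in a section, as CPM on a log axis, with bars for the 95% counting interval; lines separate V1, V0, accessory, LAMP and cathepsin genes. Ctsl moved from 340 to 1749 CPM, while Ctsd stayed near 1244 and 1278 CPM.

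**Figure D2:**
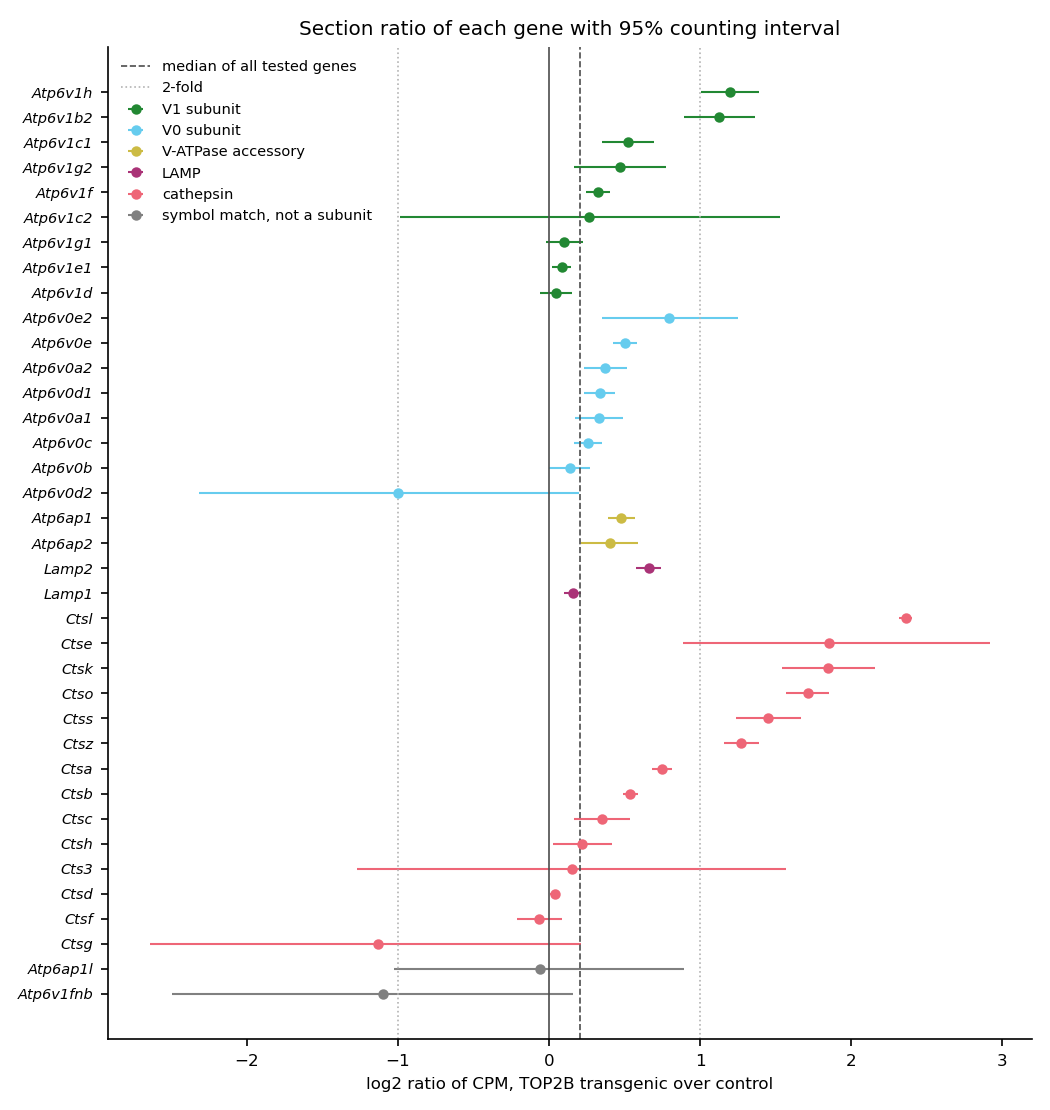
Section ratio of each of the 37 genes as log2 of transgenic over control CPM, with 95% counting intervals, colored by role. The dashed line is the median of all tested genes (0.20) and dotted lines mark 2-fold; TMM scaling shifts all points by -0.16, which places Ctsd, Cts3, Atp6v1d, Atp6v1e1, Atp6v1g1 and Atp6v0b below 0.

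In the V1 sector, 2 of 9 subunits (22.2%) were at least 2-fold higher, where 13.7% of all genes were. Atp6v1h, the H subunit that regulates ATP hydrolysis and couples the sectors, had 22.8 CPM (control) and 52.3 CPM (transgenic), a log2 ratio of 1.20 (interval 1.00 to 1.39). Atp6v1b2, the B subunit of the ATP-binding ring found in most tissues, had 15.9 and 34.8 CPM, a log2 ratio of 1.13 (interval 0.90 to 1.36), which was 0.97 and so below 2-fold after TMM scaling. The ratio intervals of both genes lay above 0, as did those of 6009 of all 15236 genes. Parts of the stalks that join ring and membrane differed less. Atp6v1e1, a stator subunit, had 291 and 309 CPM, a log2 ratio of 0.08 that turned to -0.07 after TMM scaling. Atp6v1d of the rotor had 103 and 106 CPM (0.05), and Atp6v1g1 of the stator 80.4 and 86.3 CPM (0.10), both with intervals that include 0 and both below 0 after TMM scaling. Atp6v1c1, which links the stalks, had 33.4 and 47.9 CPM (0.52), Atp6v1g2, the G subunit known from neurons, 11.5 and 15.9 CPM (0.47), and Atp6v1f of the rotor 168 and 211 CPM (0.33). Atp6v1c2 had 12 and 13 UMIs.

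Ratios between subunits in the same section do not depend on the section's total. UMIs of Atp6v1h per UMI of Atp6v1e1 were 0.0783 (interval 0.0698 to 0.0876) in the control and 0.169 (0.156 to 0.184) in the transgenic section, a 2.16-fold difference. Atp6v1b2 per Atp6v1e1 differed 2.06-fold, from 0.0547 to 0.113. These pairs set the subunits with the highest section ratios in V1 against one with a ratio among the lowest, as seen in the same data. The transcripts of these subunits, which share 1 complex, thus did not keep the same proportions in the 2 sections.

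The V0 subunits were more alike. Atp6v0e, a small membrane subunit, had 161 and 228 CPM, a log2 ratio of 0.50 (interval 0.42 to 0.58). The a subunits line the proton path. Those among the 8 were Atp6v0a1 with 42.4 and 53.4 CPM (0.33) and Atp6v0a2 with 52.2 and 67.6 CPM (0.37). Their ratio to each other was 0.811 and 0.790. Atp6v0d1, which joins the rotor to the membrane ring, had 107 and 135 CPM (0.33), and the ring subunits Atp6v0c and Atp6v0b had 124 and 148 CPM (0.26) and 63.8 and 70.1 CPM (0.14). Atp6v0b turned to -0.02 after TMM scaling. None of the 8 V0 subunits matched by symbol, which leave out Tcirg1, was at least 2-fold higher, where 13.7% of all genes were. Below 200 UMIs, Atp6v0e2 had 69 and 108 UMIs (0.80), and Atp6v0d2, known from osteoclasts and macrophages, had 20 and 9 UMIs (-1.002, interval -2.32 to 0.20).

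The 2 accessory subunits had a median log2 ratio of 0.44 and the 2 LAMPs 0.41. Atp6ap1, which takes part in assembly of the pump, had 127 and 178 CPM, a log2 ratio of 0.48 (interval 0.39 to 0.57), and Atp6ap2, the prorenin receptor, had 30.1 and 39.7 CPM (0.40). Lamp2, needed in the heart for the fusion of autophagosomes with lysosomes, had 147 and 232 CPM, a log2 ratio of 0.66 (interval 0.58 to 0.74). Lamp1 had 362 and 403 CPM (0.16, interval 0.10 to 0.21), and its value was -0.02 in the 50% of spots poorest in fibroblast genes. UMIs of Lamp2 per UMI of Lamp1 went from 0.407 (interval 0.386 to 0.428) to 0.576 (0.550 to 0.602), a 1.42-fold difference. Atp6ap1l and Atp6v1fnb had 22 and 19 UMIs, and 19 and 8 UMIs.

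Of the 9 cysteine cathepsins with at least 20 UMIs, 8 were above the median of all genes and 5 were at least 2-fold higher, where 13.7% of all genes were. Their median log2 ratio was 1.27 and their sum 970 CPM (control) and 2787 CPM (transgenic). Ctsl, cathepsin L, an endopeptidase of lysosomes, led the group with 340 CPM (control) and 1749 CPM (transgenic), a log2 ratio of 2.36 (interval 2.32 to 2.41) or 5.14-fold. Scaling by TMM gave 2.20.

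The other 4 were at lower counts. Ctsk, cathepsin K, the collagen-degrading protease of osteoclasts that fibroblasts also make, had 8.14 and 29.3 CPM, a log2 ratio of 1.85 (interval 1.54 to 2.16). Ctso, a less studied member of the papain family, had 37.1 and 121 CPM, a log2 ratio of 1.71 (interval 1.57 to 1.86). Ctss, cathepsin S of antigen-presenting cells, had 17.7 and 48.5 CPM, a log2 ratio of 1.45 (interval 1.24 to 1.67). All 3 had intervals well above 2-fold. Ctsz, a carboxypeptidase, had 59.4 and 144 CPM, a log2 ratio of 1.27 (interval 1.16 to 1.39).

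The remaining cysteine cathepsins differed by less than 2-fold. Ctsb, cathepsin B, had 391 and 568 CPM, a log2 ratio of 0.54 (interval 0.49 to 0.59). Ctsc, the dipeptidyl peptidase that activates serine proteases of immune cells, had 31.6 and 40.3 CPM (0.35), and Ctsh, an aminopeptidase, 29.4 and 34.3 CPM (0.22). Ctsf had 55.1 and 52.7 CPM (-0.06, interval -0.21 to 0.09), the lowest ratio of the 9. Cts3, the 1 placental cathepsin above the minimum, had 10 UMIs in each section.

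The aspartic and serine cathepsins did not move as 1 group. Ctsd, cathepsin D, the main aspartic protease of lysosomes, had 1244 and 1278 CPM, a log2 ratio of 0.04 (interval 0.01 to 0.07) that turned to -0.12 after TMM scaling. Ctsa, protective protein of the complex with β-galactosidase and neuraminidase, had 208 and 350 CPM, a log2 ratio of 0.75 (interval 0.68 to 0.82). Ctse, an aspartic protease known from stomach, immune and red blood cells and the sixth cathepsin at least 2-fold higher, had 12 and 39 UMIs, a log2 ratio of 1.85 (interval 0.89 to 2.92), and 14 of the 39 lay in the 54 spots rich in hemoglobin. Ctsg, a serine protease of neutrophils and mast cells, had 17 and 7 UMIs, with an interval from -2.64 to 0.21.

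Among cathepsin UMIs the share of Ctsd was lower and that of Ctsl higher, while the level of Ctsd hardly differed. Ctsd made up 51.3% of them in the control and 28.9% in the transgenic section, and Ctsl 14.04% and 39.6%. There were 0.274 UMIs of Ctsl per UMI of Ctsd (interval 0.265 to 0.282) in the control and 1.37 (1.34 to 1.40) in the transgenic section. The ratio differed 5.00-fold between the sections. This pair sets the gene with the highest section ratio against one with a ratio near 0, as seen in the same data. Both genes hold CACGTG near the far end of the windows shown above, and only Ctsd has a second site, at -98 within TCACGTGA.

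Per UMI of the macrophage list, cathepsins fell on both sides of an even ratio. Ctsl had 0.898 UMIs per UMI of that list in the control and 2.39 in the transgenic section, a 2.66-fold difference, and Ctsk, Ctso, Ctss and Ctsz were 1.86-fold, 1.70-fold, 1.42-fold and 1.25-fold higher by the same measure. Cd68 itself, which marks macrophage lysosomes, differed 0.934-fold. Ctsd went from 3.28 to 1.75 UMIs per UMI of the list (0.532-fold), and Ctsa, Ctsb, Ctsc and Ctsh were at 0.870-fold, 0.753-fold, 0.661-fold and 0.603-fold. The part of macrophage number in the section ratios was not tested.

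To view the spread inside a section, its spots were split into 4 quadrants around the tissue's middle; quadrants are no replicates of the genotype. Of the 37 genes, 22 had all transgenic quadrants above all control quadrants, where 30.4% of all genes did, and 1, Atp6v0d2 with its 29 UMIs, had them all below, where 13.1% of all genes did. The 22 included 8 of 14 cathepsins and 11 of 17 pump subunits. Such separation also depends on UMI count. Of the 29 members with at least 200 UMIs in a section 20 had it, as had 3281 of 7626 tested genes in their abundance range. For cathepsins these counts were 7 of 11 and 2915 of 6635, for V1 5 of 8 and 3133 of 7249, and for V0 5 of 6 and 1290 of 2782. The members include Ctsk and Atp6v1g2, which reached 200 UMIs only in the transgenic section. Ctsl ranged from 326 to 367 CPM over the control quadrants and was at 1374, 2372, 1325 and 1913 CPM in the transgenic quadrants. Atp6v1h ranged from 19.4 to 25.5 and from 47.2 to 59.1 CPM, and thus was nearly even inside each section. Atp6v1b2 ranged from 12.5 to 17.5 CPM in the control and was at 50.6, 20.7, 42.6 and 26.1 CPM in the transgenic quadrants. Ctsl was high where Atp6v1b2 was low. Ctsk ranged from 7.72 to 8.61 CPM over the control and from 17.0 to 38.0 CPM over the transgenic quadrants, Ctso from 32.5 to 45.5 and from 112 to 128 CPM, and Ctss from 14.6 to 22.8 and from 32.1 to 59.0 CPM. None of these 3 overlapped between the sections, and Ctso was the most even of them in the transgenic section. Lamp2 ranged from 140.8 to 157.4 and from 211.2 to 257.0 CPM without overlap, whereas Lamp1, from 349.0 to 381.5 and from 373.5 to 436.6 CPM, and Ctsd, from 1164 to 1336 and from 1176 to 1392 CPM, overlapped. The fibroblast list in the same transgenic quadrants was at 4848, 6406, 3657 and 5698 CPM, the macrophage list at 703, 821, 625 and 791 CPM, and the cardiomyocyte list at 68468, 58184, 70699 and 62306 CPM. Over these 4 quadrants Ctsl had the order of the fibroblast and macrophage lists, and the cardiomyocyte list had the opposite order. Lyz2, with 28 and 22 UMIs, was the macrophage gene that was not higher in the transgenic section. The part of cell makeup in these differences was not tested.

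**Figure D3:**
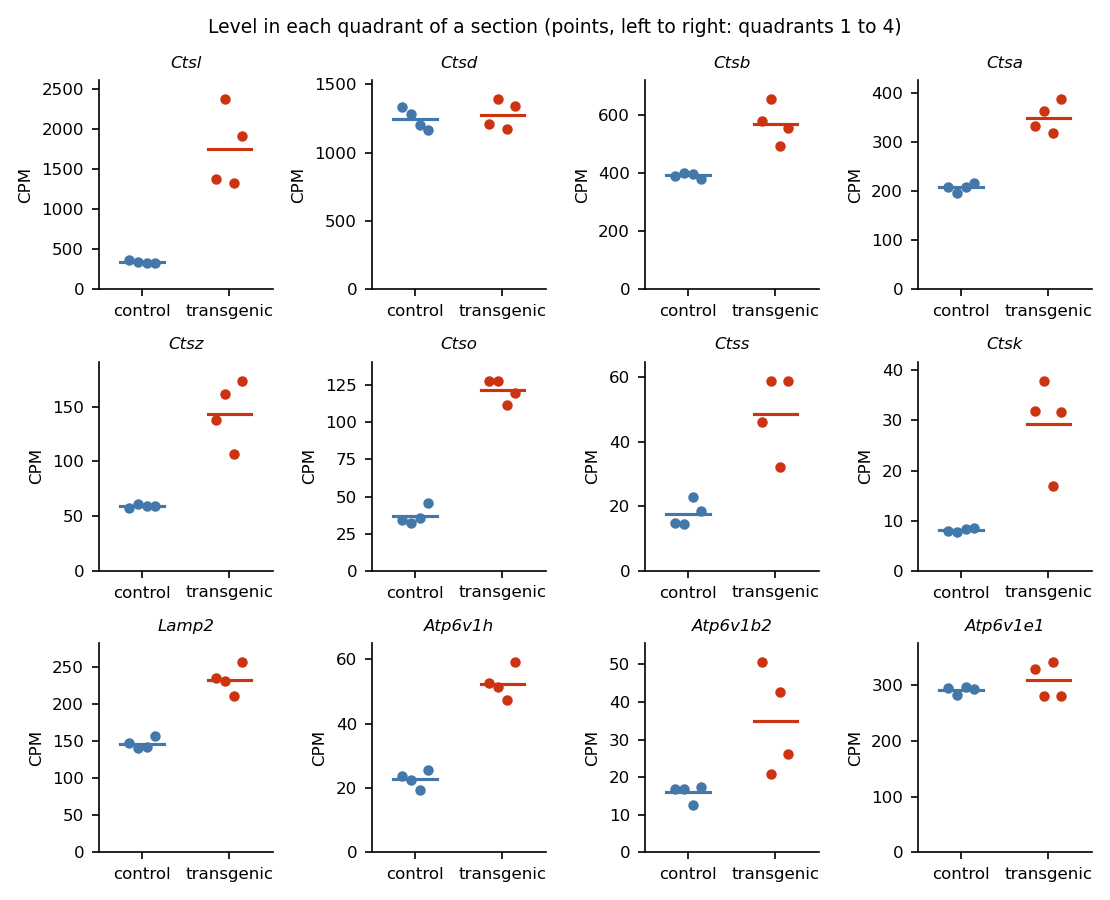
CPM of 12 of the genes in each of the 4 quadrants of a section (points) and in the whole section (line), on axes that start at 0. For Ctsl the control quadrants lie between 326 and 367 CPM and the transgenic between 1325 and 2372 CPM, whereas the points of Ctsd and Atp6v1e1 overlap.

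Moran's I, a score of how alike neighboring spots are that the authors deposited per gene, was 0.033 for Ctsl in the control and 0.654 in the transgenic section, where it ranked 28 among genes with at least 200 UMIs. Ctsd had 0.069 and 0.520, although its level hardly differed. Among pump subunits the highest transgenic score was 0.238, of Atp6v1e1, and Atp6v1h had 0.054. The score also depends on a gene's UMI count and on the depth of the spots. In single spots Ctsl was at a median of 3.16 UMIs per 10000 in the control and 15.3 in the transgenic section, and 92.2% of the transgenic spots were above the 90th percentile of the control. Its 10th percentile in the transgenic section, 6.55, was above the control's 90th percentile of 5.92, so that the higher level was found over most of the section and not in a few spots.

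**Figure D4:**
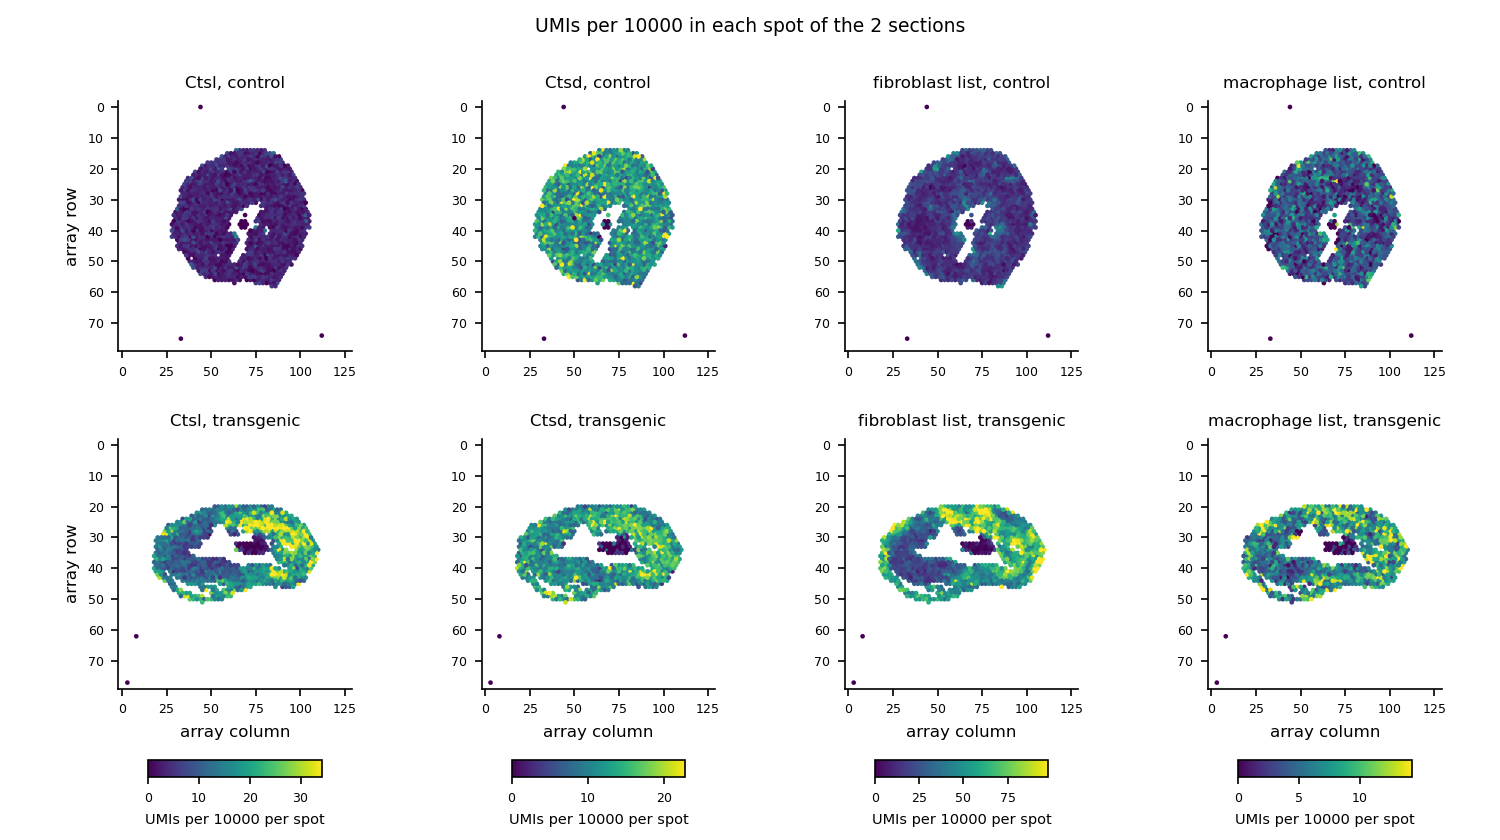
Each point is a spot at its array row and column, colored by UMIs per 10000 of that spot for Ctsl, Ctsd, the fibroblast list and the macrophage list, with 1 color scale per column and the control section above the transgenic. Ctsl is higher over most of the transgenic section, and the 54 spots rich in hemoglobin include the dark island inside it. A few spots, labeled as over tissue like all others, lie apart from the rest.

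Relation to macrophages was first described with Cd68, a membrane glycoprotein of macrophage lysosomes, in each section by itself. Cd68 had 187 UMIs in the control and 304 in the transgenic section, 13.0 and 23.5 CPM, a log2 ratio of 0.85 (interval 0.58 to 1.12). In the control all 174 spots with a Cd68 UMI were taken as Cd68-rich and compared with the other 1082, and in the transgenic section the 231 spots with the highest share were compared with the other 693. Summed cathepsins were at 2450 CPM in Cd68-rich and 2421 CPM in other control spots, a log2 ratio of 0.02 (interval -0.03 to 0.06). In the transgenic section they were at 4812 and 4271 CPM, 0.17 (interval 0.15 to 0.20). That value was 0.10 after thinning spots to 5000 UMIs, and Cd68-rich transgenic spots were deeper, with a median of 15419 against 14220 UMIs. Summed pump subunits had 0.04 (interval -0.02 to 0.10) in the control and -0.01 (interval -0.05 to 0.04) in the transgenic section. The sectors differed in sign in the transgenic section, where the median of 7589 single genes was 0.04. There V1 had -0.08 (interval -0.14 to -0.02) and V0 had 0.08 (interval 0.02 to 0.15), and in the control V1 had -0.01 (interval -0.10 to 0.07) and V0 had 0.10 (interval 0.01 to 0.19). The difference between the sections in these relations was not tested, and most spots hold 0 or 1 Cd68 UMI, so that the classes are coarse.

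Single cathepsins showed the same small steps. With at least 200 UMIs in the section, 0 of 11 transgenic cathepsins had a log2 ratio of Cd68-rich over other spots of at least 0.5, where 0.698% of genes did. Their range was -0.11 to 0.35, and Ctsk (0.35), Ctsh (0.35) and Ctsz (0.32) were the highest. In the control 1 of 10 did, Ctss with 0.50 (interval 0.02 to 0.96), where 0.706% of genes did. Transgenic Ctsl was at 1668 CPM in spots with no Cd68 UMI, 1925 CPM in the 182 spots with 1, and 2046 CPM in the 54 spots with 2 or more. The median depth of these spots was 14174, 15180 and 16488 UMIs. In the control the Ctsl values were 341, 334 and 351 CPM. The section difference in Ctsl was also present among spots without a Cd68 UMI. Such spots need not be free of macrophage transcripts, as 95.4% of control and 96.8% of transgenic spots held UMIs of the macrophage list.

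With the list of 15 macrophage genes, without Cd68, more cathepsins reached 0.5 in the transgenic section and as many as before in the control. In the transgenic section, 4 of 11 had a log2 ratio of at least 0.5 between the 231 macrophage-rich and the other 693 spots, where 4.02% of genes did. They were Ctsk with 0.87 (interval 0.56 to 1.17), Ctss with 0.82 (0.58 to 1.06), Ctsc with 0.58 (0.31 to 0.84) and Ctsh with 0.53 (0.23 to 0.82). Ctsz had 0.46 and Ctsl 0.28. In the control 1 of 10 did, Ctss with 0.65 (interval 0.25 to 1.03), where 0.707% of genes did. Ctss, which macrophages are known to express, was thus the 1 cathepsin at or above 0.5 in both sections. No pump subunit reached 0.5 in either section, and Atp6v1b2 was lower in macrophage-rich transgenic spots (-0.48, interval -0.83 to -0.14).

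In the transgenic section, the step in summed cathepsins was larger by the fibroblast list than by the macrophage list, with which it was 0.25 (interval 0.22 to 0.28). There the fibroblast list held 66354 UMIs and the macrophage list 9485, so that ranks by the macrophage list carried more counting error. The part of this in the steps was not tested. Summed cathepsins were at 5447 CPM in the 231 fibroblast-rich and 4048 CPM in the other spots, a log2 ratio of 0.43 (interval 0.40 to 0.45), and in the control at 2483 and 2408 CPM (0.04). Without Ctsd, the most counted cathepsin in the control, the control value was 0.13 (interval 0.08 to 0.18) and the transgenic value 0.47 (interval 0.44 to 0.50). Of the control cathepsins 1 of 10, Ctsc with 0.54, was at or above 0.5, where 2.72% of genes were, and 5 of 10 had intervals above 0. The share of all genes with such intervals was not counted, and intervals are narrower for genes with more UMIs. In the transgenic section 4 of 11 were at or above 0.5, where 7.64% of genes were. Ctsk had 0.86, Ctss 0.80, Ctsz 0.74 and Ctsl 0.55, whereas Atp6v1b2 had -0.79 (interval -1.16 to -0.43). In spots rich in cardiomyocyte genes the signs turned, with -0.89 for Ctss, -0.77 for Ctsk, -0.66 for Ctsl and 0.48 for Atp6v1b2. Atp6v1h, with 0.27 in fibroblast-rich and -0.33 in cardiomyocyte-rich spots, went with Ctsl and not with Atp6v1b2. The 2 pump subunits at least 2-fold higher between sections thus had opposite signs in both rankings.

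**Figure D5:**
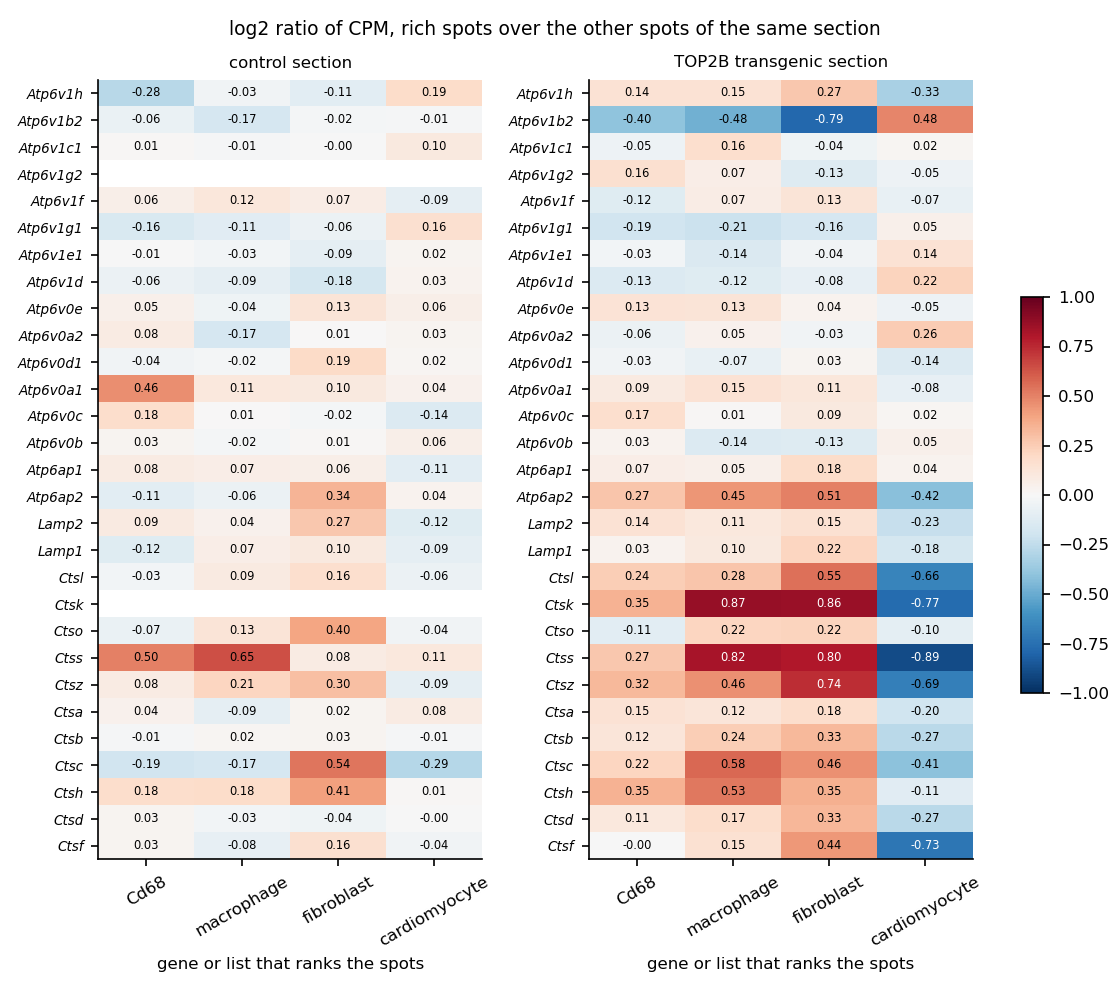
log2 ratio of CPM in the 25% of spots richest in Cd68 or in a cell type list (for Cd68 in the control, the 174 spots with a UMI) over the other spots of the same section, for genes with at least 200 UMIs in that section (empty where fewer). In the control most values lie near 0, and in the transgenic section Ctsk, Ctss and Ctsz are higher in macrophage-rich and fibroblast-rich spots while Atp6v1b2 is lower.

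Macrophage-rich and fibroblast-rich spots overlapped, so the macrophage ranking was repeated in the 50% of transgenic spots richer and poorer in fibroblast genes. Of the 231 macrophage-rich spots, 182 lay in the richer part. There Ctsl had -0.03 (interval -0.07 to 0.02), while Ctsc (0.69), Ctsh (0.61), Ctsk (0.47) and Ctss (0.44) had intervals above 0, as had Ctsz (0.21) and Ctsd (0.07). In the poorer part, with 49 macrophage-rich spots, Ctsk had 1.04 (interval 0.31 to 1.71), Ctss 0.93 (0.36 to 1.46), Ctsl 0.22 (0.12 to 0.31), Ctsa 0.26 (0.06 to 0.45) and Ctsb 0.23 (0.07 to 0.39). Ctsc had -0.27 (-1.03 to 0.42) and Ctsh 0.13 (-0.58 to 0.78) there. Ctss and Ctsk thus had intervals above 0 in both parts. In the 50% of spots poorest in the macrophage list and Cd68 the section ratio of Ctsl was 2.25, of Ctss 1.22 and of Ctsk 1.09. These spots were cut at the median of each section by itself, so their macrophage share was not matched between the sections.

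Over spots, correlations were weak in the control and clearer in the transgenic section. The Spearman correlation between Ctsl and Ctsd was -0.01 over 1256 control spots and 0.46 over 923 transgenic spots with UMIs, where the median of 7589 genes against Ctsl was 0.08. In the control that median was 0.01 over 7220 genes. In the transgenic section the correlation of Ctsl was 0.33 with Ctsb, 0.31 with Ctsz and -0.11 with Atp6v1b2. With the marker lists it was 0.63 for fibroblast, 0.36 for macrophage and -0.33 for cardiomyocyte genes, and 0.17 for Cd68. Ctsl had 4895 UMIs in the control and 22655 in the transgenic section, and low counts weaken correlations over spots. The rankings differed in UMIs too, with 66354 (fibroblast), 9485 (macrophage) and 304 (Cd68) in the transgenic section. The part of counts in these values was not tested. Spots share a section and a library and differ in depth, so the correlations describe the sections only.

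The 54 spots rich in hemoglobin were shallow and had lower CPM of most members, with 677 CPM of Ctsl and 474 CPM of Ctsd against 1774 and 1297 CPM in the other 870. Erythroid genes were at 540757 CPM in the 54 spots and 8249 CPM in the other 870, which by itself lowers the CPM of every other gene. Levels per UMI of the other genes were not counted. Without such spots in both sections, the section ratio was 2.38 for Ctsl, 0.06 for Ctsd, 1.22 for Atp6v1h and 1.15 for Atp6v1b2. The Cd68 ratio of summed transgenic cathepsins was 0.14 and that of pump subunits -0.03. Of 14 single pump subunits, 0 then had Cd68 intervals above 0 and 3 below 0, in place of 2 and 1. The share of all genes with such intervals was not counted, and the median Cd68 ratio of all single genes also went from 0.04 to 0.01. The Spearman correlation of Ctsl was then 0.39 with Ctsd, 0.59 with the fibroblast list, -0.53 with the cardiomyocyte list and -0.18 with Atp6v1b2, over 869 spots. These 4 section ratios thus hardly moved, and both negative correlations were larger in size. Ctse, in contrast, was then at 0.835 CPM (control) and 1.98 CPM (transgenic), from 12 and 25 UMIs, and remained at least 2-fold higher.

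Other lysosomal genes are given beside the all-gene shares of 63.2% higher and 13.7% at least 2-fold higher. Soluble hydrolases other than cathepsins had a median log2 ratio of 0.31 over 32 genes, with 25 higher and 5 of them at least 2-fold higher (15.6%, near the share of all genes), from -0.39 for Aga to 2.27 for Galns, which removes sulfate from glycosaminoglycans (4.10 and 19.8 CPM). Membrane and transport genes had 0.27 over 21 genes, with 16 higher and 2 of them at least 2-fold higher (9.52%). They ran from -0.39 for Laptm4b to 1.55 for Grn, the progranulin precursor of lysosomal granulins (137 and 403 CPM). Genes of V-ATPase assembly and regulation, a list that includes the a subunit Tcirg1, had 0.12 over 12 genes, with 9 higher. Of the 12, 1 was at least 2-fold higher (8.33%), at 1.13 and with fewer than 200 UMIs in each section. Among those with at least 200 UMIs they ran from -0.68 for Oxr1 to 0.31 for Rogdi. This list and the last one were both below the median of all genes. The TFEB family and mTORC1 genes at the lysosome had -0.13 over 17 genes, with 8 higher, 5 above the median of all genes and 0 at least 2-fold higher. Rragc, a Rag GTPase, was at 0.74 and Mitf at -1.99 (61.5 and 15.5 CPM). Tfeb itself had 24.7 and 25.4 CPM, a log2 ratio of 0.04 (interval -0.18 to 0.26). Cst3, cystatin C, the secreted inhibitor of cysteine cathepsins, had 1993 and 4000 CPM, a log2 ratio of 1.01 (interval 0.98 to 1.03). UMIs of Ctsl per UMI of Cst3 were 0.171 and 0.437, so that protease and inhibitor were both higher and Ctsl more so.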

How the data were processed

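Per the file headers, the reads were counted by the authors in Space Ranger 2.0.0, and the submitters' processing notes also name bcl2fastq and GRCm39. They deposited raw UMI counts for every gene in every spot, and Moran's I per gene as a score, used as given. Counts were summed over the spots over tissue of each section and expressed as CPM. As spots are not replicates of a genotype, no test was run, including the Wilcoxon comparison of spots in the study's methods. Intervals at 95% are exact Poisson for levels and exact binomial for ratios, and cover counting error only. The section depths, 14376300 and 12953389 UMIs, set their width. A count of 0 was bounded by 3 counts, 0.209 CPM (control) or 0.232 CPM (transgenic). Called means at least 2-fold. Spots were ranked by UMIs of Cd68 or of a marker list per 10000 UMIs. Values are given for members with at least 200 UMIs in a section, others by counts, and for each other list the highest and lowest gene with at least 200 UMIs.

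Members, lists and alternatives were chosen with earlier results of these data known. The alternatives were edgeR 4.0.16 TMM factors and DESeq2 1.42.0 size factors (R 4.3.3), used for scaling only, totals without the 50 most abundant genes, means over spots, 1 CPM added, subsets of spots, spots thinned to 5000 UMIs, and members with at least 1 or 200 UMIs. Spots poor in fibroblast genes, spots with at most 10% erythroid UMIs and the counts of members at least 2-fold higher were added after seeing the data. Intervals were tested on simulated data. Sums and intervals were made with pandas 2.3.3, scipy 1.17.1 and numpy 2.4.6 in Python 3.11.15, figures with matplotlib 3.10.9. The promoter windows are RefSeq's, matched by symbol. The deposited clusters, images and significance values of the Moran score were left out.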

Additional observations from a re-analysis of the deposited data

How the results depend on the processing

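Precision is limited by 1 section per genotype, so neither animal, section plane nor batch can be told apart from genotype. No paired analysis was possible because each group has 1 section. Under the alternatives, 71 values of the medians, counts and Cd68 relations stayed within their band, 14 moved further, and 0 turned in direction. The band was the counting interval for Cd68 relations and a factor of 1.5 either way for counts. For medians it ran from the median of the members' lower bounds to the median of their upper bounds. A count could not turn, and a Cd68 relation was scored as turned only where its reported interval excluded 0. For the median of V0 subunits, 0.33 as reported with a band of 0.20 to 0.46, TMM factors gave 0.18 and DESeq2 factors 0.18. The median of V1 subunits, also 0.33, moved by the same -0.16 and -0.15. It counted as within its band only because that was wider, 0.17 to 0.70. For the median of cathepsins, 0.64 as reported, they gave 0.49 and 0.49, leaving the 50 most abundant genes out of the totals 0.56, using the 50% of spots richest in cardiomyocyte genes 0.54, the 50% poorest in fibroblast genes 0.47, and members with at least 1 UMI 0.45. The count of pump subunits at least 2-fold higher was 1 with TMM and 1 with DESeq2 factors in place of 2, as Atp6v1b2 fell below. For summed transgenic cathepsins, the ratio of 0.17 between Cd68-rich and other spots was 0.25 with the macrophage list and 0.43 with the fibroblast list in place of Cd68, 0.10 after thinning spots to 5000 UMIs (28 spots of the control and 38 of the transgenic section were shallower), and 0.14 without spots rich in hemoglobin. Over 29 members and 11 settings, 238 section ratios stayed within their interval, 68 moved, and 13 turned in direction among members whose interval excluded 0 as reported. Atp6v1d and Atp6v1g1, whose intervals included 0, also went below 0 with TMM (-0.109 and -0.0549) and DESeq2 factors (-0.102 and -0.0482), and Atp6v1d also without the 50 most abundant genes (-0.0390) and as a mean over spots (-0.0036), while Ctsf as a mean over spots went above 0 (0.00047). Ctsd turned to -0.12 with TMM, -0.11 with DESeq2, -0.0489 without the 50 most abundant genes, -0.0074 as a mean over spots, -0.11 in cardiomyocyte-rich, -0.0536 in macrophage-poor and -0.14 in fibroblast-poor spots. Atp6v1e1 turned to -0.0740 with TMM, -0.0673 with DESeq2 and -0.0041 without the 50 most abundant genes, Atp6v0b to -0.0209 with TMM and -0.0142 with DESeq2, and Lamp1 to -0.0191 in fibroblast-poor spots. The cause of these changes was not tested.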

Other observations

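Genes that sort enzymes to the lysosome had a median log2 ratio of 0.28 over 9 genes, near the 0.20 of all genes, with Gga2, an adaptor for mannose 6-phosphate receptors at the Golgi, at 0.91 (45.5 CPM, control, and 85.2 CPM, transgenic) and Sort1, the receptor sortilin, at -1.15 (22.7 and 10.3 CPM). Autophagy genes had 0.27 over 27 genes. None of them was at least 2-fold higher or lower, where 13.7% and 5.61% of all genes were. Sqstm1, the p62 receptor that carries cargo into autophagosomes, was the highest with 583 and 1080 CPM, a log2 ratio of 0.89 (interval 0.85 to 0.93), and Optn, another cargo receptor, the lowest with 117 and 65.9 CPM, a log2 ratio of -0.83 (interval -0.95 to -0.71).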
